A study of Mus musculus with 18 samples.

Results

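The undigested (Input) total RNA of liver from suckling mice was compared between animals that lack the RNA-editing enzyme ADAR1 and animals that do not. All Input libraries were taken by their labels, which gave 6 of the 18 libraries of the series: 3 of genotype Adar-/-; Mavs-/- and 3 of genotype Mavs-/-. Both groups therefore lack MAVS and differ in Adar, although the titles of the Mavs-/- samples call them wild-type. The first group is referred to below as Adar-deficient. Livers came from animals 8-9 days old, from intercrosses of Adar and Mavs mutants on a Bl6J background, and the triplicates of each genotype are given as biological replicates. The libraries held ribosome-depleted RNA read from 1 end on a known strand (75 bp), and were deposited as a list of peaks per library, in which a peak is a stretch of genome where reads pile up. In the study these libraries serve as the reference for RNase protection, and here they were compared with each other. Which exons the Adar allele lacks is not given in the sources used here, and neither is the sex of the animals.

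ADAR1 converts adenosines to inosines in double-stranded RNA. Without it, unedited cellular duplexes are bound by the cytoplasmic sensor MDA5, which signals through MAVS to switch on interferon genes, so loss of MAVS lets Adar-null mice survive birth. Other sensors of double-stranded RNA, such as PKR and ZBP1, act without MAVS. The liver of a suckling mouse is passing from a blood-forming organ to a metabolic one: it makes plasma proteins, burns fatty acids from milk, disposes of nitrogen as urea, and begins to answer growth hormone with insulin-like growth factor 1, while its last erythroid cells disappear.

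Each peak was assigned to GENCODE M21 genes when it overlapped an exon on its own strand. The lists held 6991, 8868 and 8948 peaks in Adar-/-; Mavs-/- replicates 1, 2 and 3, and 5049, 4326 and 6625 peaks in Mavs-/- replicates 1, 2 and 3. This order of libraries is kept below. Every Adar-/-; Mavs-/- list was longer than every Mavs-/- list, with means of 8269 ± 1108 and 5333 ± 1176 peaks (SD, n = 3; p = 0.1, two-sided exact permutation test, the smallest value that 3 against 3 libraries allow). Peaks touched exons of 3052, 3713 and 3754 genes in Adar-/-; Mavs-/- and of 2264, 1935 and 3053 genes in Mavs-/- liver. The lowest Adar-deficient library (3052) was just under the highest Mavs-/- library (3053), and the mean difference of 1089 genes gave p = 0.2 in the exact permutation test. Summed over genes, peaks covered 2987, 2958 and 2951 kb of exons in Adar-/-; Mavs-/- and 1779, 1560 and 2235 kb in Mavs-/- liver (exact p = 0.1).

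The lists contain no read counts, and the read totals of the libraries were not used here, so from these lists alone a longer list cannot be told apart from a deeper library. All comparisons were therefore repeated with the 4326 peaks of largest area in each library, the length of the shortest list, referred to as equal numbers. With equal numbers, peaks touched 2183, 2144 and 2174 genes in Adar-deficient and 1994, 1935 and 2152 in Mavs-/- liver (difference in means 140, exact p = 0.2). The covered exons were then 2244, 1879 and 1865 kb against 1614, 1560 and 1704 kb (exact p = 0.1), and the groups still did not overlap. The peaks kept were also longer, with a median length of 449, 401 and 396 bases in Adar-deficient and 320, 276 and 341 bases in Mavs-/- libraries (exact p = 0.1). The area of the smallest peak kept also differed, at 712, 788 and 796 against 557, 501 and 653, so equal numbers did not make the lists alike. The share of peaks that touched no exon of their strand was 7.66% ± 0.559 in Adar-deficient and 7.52% ± 1.94 in Mavs-/- libraries (SD, n = 3; exact p = 1).

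**Figure D1:**
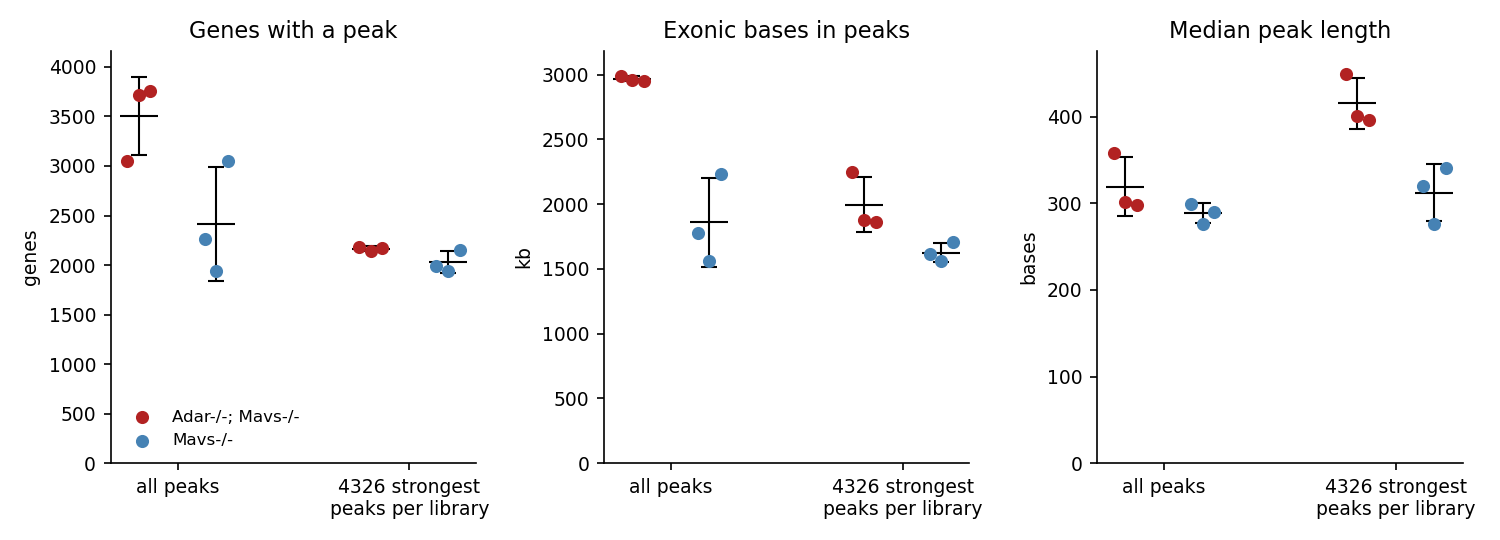
Genes with a peak (number of genes), exonic bases in peaks (kb) and median peak length (bases) in each Input library, with all peaks and with the 4326 strongest peaks per library. Points are libraries, horizontal lines the mean and bars the SD (n = 3). With all peaks the Adar-/-; Mavs-/- libraries sit at 2951 to 2987 kb of exons and the Mavs-/- libraries at 1560 to 2235 kb, and with equal numbers the gene counts come within 1935 to 2183.

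The targeted gene was hardly covered. Adar (3:89715022-89753446, GRCm38) had 0, 452 and 285 exonic bases in peaks in Adar-deficient and none in any Mavs-/- library, and both peaks lay in exonic block 3 of 16 (3:89734842-89736273). A peak in the mutant but not in the control does not check the label, since where the allele is deleted is not known. Mavs, which encodes the signalling adaptor missing from both groups, was listed in none of the 6. A gene without a peak is not a gene without RNA, because only peaks with an area of at least 500 were listed.

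Some libraries stood apart from others of their genotype. Xist, the RNA that coats the inactive X chromosome of female cells, had 11965, 3786 and 10332 covered bases in Adar-deficient and 0, 12776 and 0 in Mavs-/- liver. Mavs-/- replicates 1 and 3 were thus the only libraries with no Xist peak, while no Y-linked gene had a peak in any library. Interferon-stimulated genes were listed in 10, 25 and 23 cases in Adar-deficient and in 12, 8 and 13 in Mavs-/- libraries, which placed Adar-deficient replicate 1 with the Mavs-/- libraries. Markers of erythroid cells were listed for 12, 10 and 8 genes in Adar-deficient and for 17, 11 and 27 genes in Mavs-/- liver, with Mavs-/- replicate 3 the highest. Of the hepatocyte markers, 15 or 16 of 16 were listed in every library, as the tissue label requires.

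For the comparison of genes, the number of exonic bases in peaks per gene was compared between genotypes with limma on log2(bases + 100), and a gene was called at a Benjamini-Hochberg adjusted p under 0.05. A log2 difference below is on that scale, and none is given where all libraries of a genotype had no peak. In such a gene the area limit gave all libraries of that genotype the same value. The gene's own spread then came from the other genotype only, and its p may be too small, also with 1 library left out. Of 5276 genes with a peak in any library, 3871 had one in at least 2 libraries and were tested. With all peaks, 324 genes (8.37% of those tested) were called higher and 48 (1.24%) lower in Adar-deficient liver. Of the 324, 253 had no peak in any Mavs-/- library, and of the 48, 40 had none in any Adar-deficient library. The median log2 difference over all tested genes was 0.56. With equal numbers, 130 of 2654 genes (4.9%) were called higher and 92 (3.47%) lower, and the median was 0.06. The balance of higher to lower calls thus moved with the number of peaks used, and 73.0% of tested genes were above 0 with all peaks against 57.1% with equal numbers. When the summed peak area per gene was centred in each library instead, 231 genes (5.97%) were higher and 161 (4.16%) lower. Counts of called list members below are to be read beside these shares over all tested genes.

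Genes called the same way with all peaks and with equal numbers were few: 84 higher (2.17% of 3871) and 34 lower (0.878%). Of the 84, 60 had no peak in any Mavs-/- library, and of the 34, 28 had no peak in any Adar-deficient library. Most were protein coding, 80 and 32 respectively, and 102 of the 118 were also called in that direction by centred area. Without Mavs-/- replicates 1 and 3, the libraries with no Xist peak, all 84 and all 34 kept their direction. That fit had only 1 Mavs-/- library, so its calls are not given. The 60 and 28 genes with no peak in 1 genotype could not reverse in it. Only 2 genes changed sign with equal numbers after being called with all peaks. These were Mdh2, a mitochondrial malate dehydrogenase, and Pla1a, a phospholipase.

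**Figure D2:**
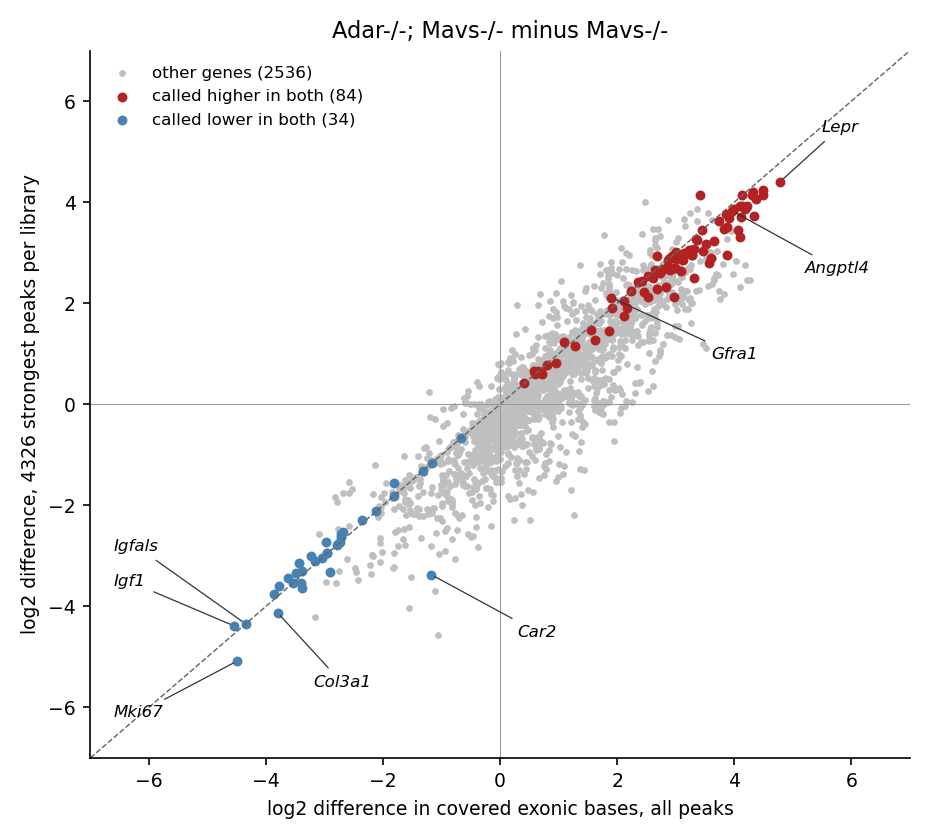
Log2 difference in covered exonic bases (Adar-/-; Mavs-/- minus Mavs-/-) for each gene tested both ways, with all peaks (horizontal axis) and with the 4326 strongest peaks per library (vertical axis). The dashed line marks equal values. Grey points are genes not called in both, the 84 genes called higher in both are red and the 34 called lower in both are blue, with Igf1, Igfals and Mki67 at the lower end and Lepr at the upper end.

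The circulating complex of insulin-like growth factor 1 lacked Input peaks for all 3 of its genes in Adar-deficient liver. Growth hormone acts on the liver through its receptor and STAT5 to induce Igf1, which encodes the circulating growth factor, and Igfals and Igfbp3, whose products hold that factor in a ternary complex in blood. Igfals (17:24865997-24882010, plus strand) had 1918, 1988 and 1901 covered bases in Mavs-/- libraries and none in the Adar-deficient libraries (limma adjusted p = 0.000856, and 0.000264 with equal numbers). Igf1 (10:87858265-87937042, plus strand) had 3501, 1716 and 1874 bases in Mavs-/- and none in Adar-deficient libraries (limma adjusted p = 0.0018, and 0.000518 with equal numbers). Igfbp3 (11:7206086-7213923, minus strand) had 706, 939 and 1430 bases in Mavs-/- and none in Adar-deficient libraries (limma adjusted p = 0.00234, and 0.00235 with equal numbers). For these 3 genes the genotypes did not overlap, and each call held with any 1 of the 6 libraries left out. Leaving out 1 Adar-deficient library could not change the difference, since none of them had a peak. Almost all covered bases of Igfals lay in its last exon, and those of Igf1 mostly in its last exon, in each Mavs-/- library.

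Other members of the axis did not follow. Of 15 tested genes on that list, 3 were called lower and 2 higher (limma), with a list median of 0.19. With equal numbers 3 of 13 were lower and 0 higher (limma), with a median of 0.16. Over all tested genes 1.24% were lower and 8.37% higher, and 3.47% and 4.9% with equal numbers. The growth hormone receptor Ghr had no peak in Adar-deficient libraries and 173, 0 and 79 bases in Mavs-/- libraries (limma adjusted p = 0.25). The binding protein Igfbp1 had 1518, 1508 and 1508 bases in Adar-deficient and 1359, 1329 and 1490 in Mavs-/- liver, and did not pass the test (limma adjusted p = 0.299). The growth hormone feedback inhibitor Socs2 had 597, 800 and 381 bases against 0, 0 and 839 (limma adjusted p = 0.328). The 2 called higher were the forkhead factors Foxo1 (848, 924 and 421 bases against none, limma adjusted p = 0.00466) and Foxo3 (1935, 611 and 1584 bases against none, limma adjusted p = 0.0069). Both act when insulin and IGF1 signalling is low, but with equal numbers Foxo1 was not tested and Foxo3 was not called (limma adjusted p = 0.273).

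**Figure D3:**
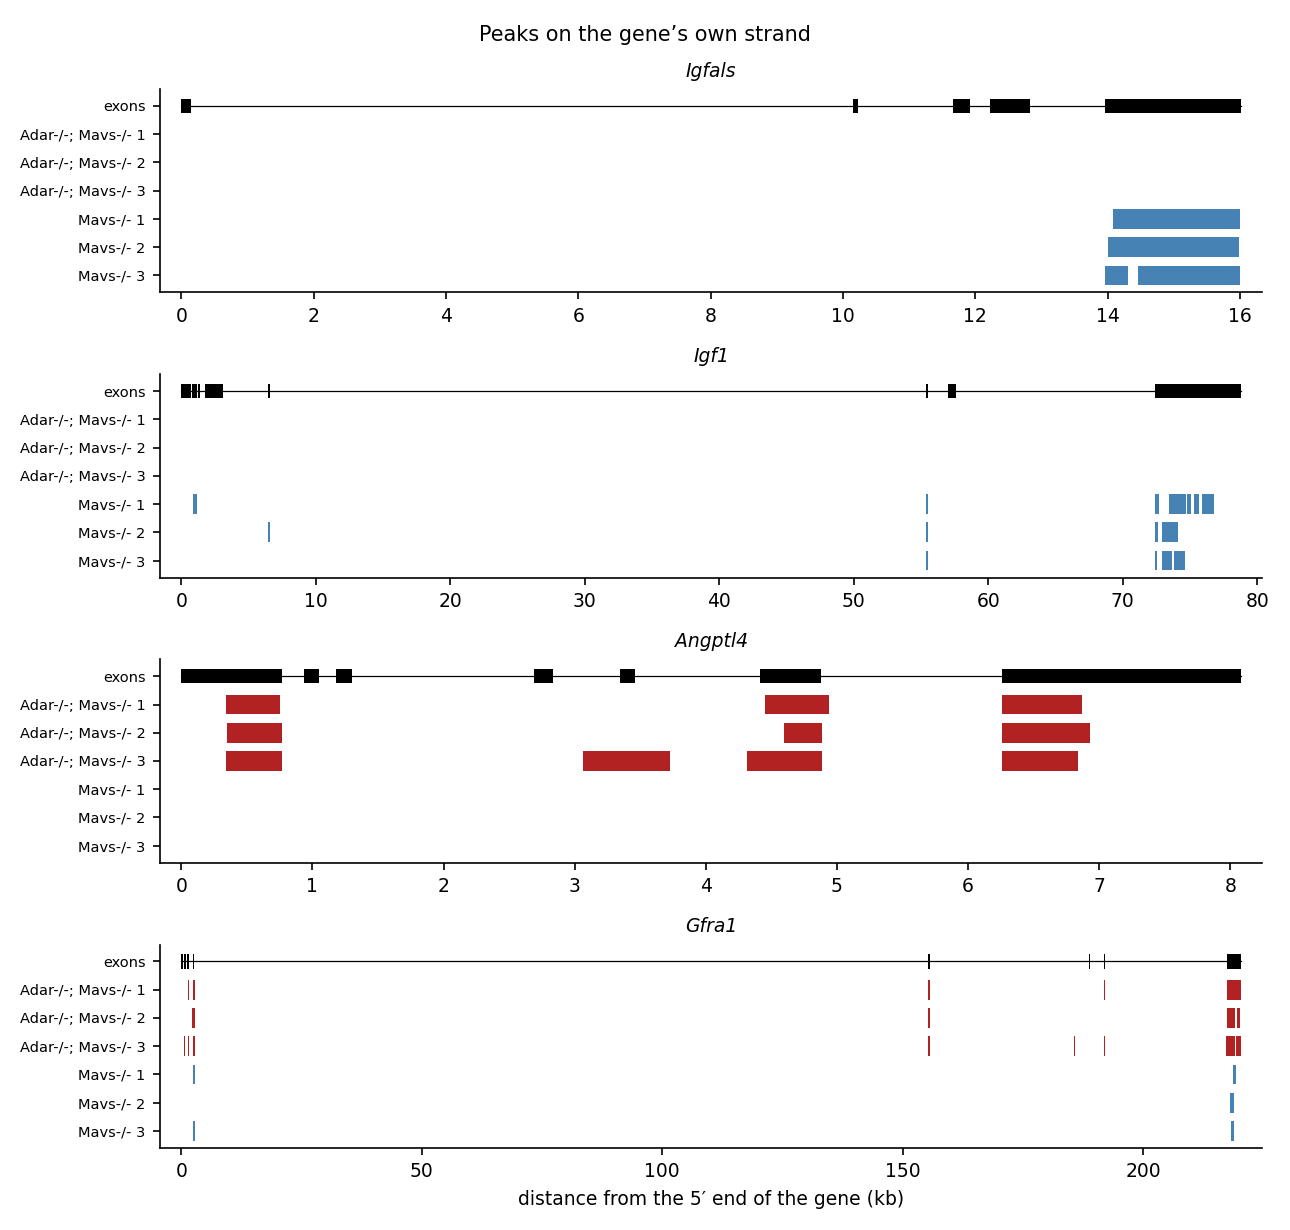
Input peaks on the strand of 4 genes, by distance from the 5′ end of the gene (kb). Black boxes are exons, red bars peaks of the 3 Adar-/-; Mavs-/- libraries and blue bars peaks of the 3 Mavs-/- libraries. Igfals and Igf1 have peaks in Mavs-/- libraries only, Angptl4 in Adar-/-; Mavs-/- libraries only, and Gfra1 in all 6, with longer peaks in Adar-/-; Mavs-/- libraries.

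Several genes of fasting and fat use had higher coverage in Adar-deficient liver. When fat reaches the liver, the receptor PPARα and the forkhead factors switch on enzymes that burn it and proteins that store or release it. Of 34 tested genes of fatty acid oxidation and ketogenesis, 6 were called higher and none lower with all peaks. With equal numbers 6 of 30 were higher and 2 lower. Over all tested genes 8.37% were higher and 1.24% lower, and 4.9% and 3.47% with equal numbers. The list's median log2 difference was 0.09 against 0.56 over all tested genes, so most of the list did not share the difference of those 6. Angptl4 (17:33773750-33781830, minus strand), whose product blocks lipoprotein lipase, had 1445, 1366 and 1583 covered bases in Adar-deficient and none in Mavs-/- libraries (limma adjusted p = 0.000856, and 0.000471 with equal numbers). Pdk4 (6:5483351-5496309, minus strand), the kinase that turns off pyruvate dehydrogenase, had 1265, 1534 and 1163 bases against none (limma adjusted p = 0.00109, and 0.000518 with equal numbers). Both calls held with any 1 library left out.

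Members with peaks in both genotypes gave smaller differences. Plin2, a coat protein of lipid droplets, had 2519, 2052 and 1804 bases against 1199, 1252 and 1317 (log2 difference 0.70 ± 0.13 SE, limma adjusted p = 0.0364). The genotypes did not overlap. The Plin2 call was lost without Adar-deficient replicate 2 or without any 1 of the 3 Mavs-/- libraries, with limma adjusted p up to 0.118. Eci2, an isomerase of unsaturated fatty acids, had 826, 1103 and 977 bases against 189, 0 and 165 (log2 difference 2.43 ± 0.47 SE, limma adjusted p = 0.0397, and 0.000684 with equal numbers). With all peaks its call was lost without any 1 Adar-deficient library or without Mavs-/- replicate 1 (limma adjusted p up to 0.124). Cpt1a, which admits fatty acids to mitochondria, had 3888, 4153 and 4102 bases against 3177, 3233 and 3390. It was called with all peaks (limma adjusted p = 0.0123) but not with equal numbers (0.283). Ppara itself had 1908, 2111 and 2095 bases against 2113, 1272 and 1653 and did not pass (limma adjusted p = 0.363).

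The Cyp4a hydroxylases, which start ω-oxidation of fatty acids and are classical PPARα targets, sit in a cluster of near-identical genes, so their reads may be shared. Cyp4a31 had 1840, 1742 and 1880 bases in Adar-deficient and 137, 0 and 145 in Mavs-/- liver (log2 difference 3.42 ± 0.39 SE, limma adjusted p = 0.00641). Cyp4a10 had 1564, 1645 and 1859 bases against 0, 0 and 420 and passed with equal numbers only (limma adjusted p = 0.0562 with all peaks and 0.00556 with equal numbers). Cyp4a14 had 2314, 2258 and 2374 bases against 1346, 1887 and 1826 and did not pass (limma adjusted p = 0.151). The genotypes did not overlap for any of the 3, of which Cyp4a31 and Cyp4a10 were chosen after their values were seen. The mitochondrial enzymes Acat1 (1427, 1523 and 781 bases against 1679, 1715 and 1582) and Decr1 (0, 0 and 203 against 147, 203 and 203) were lower with equal numbers only, at limma adjusted p = 0.0276 and 0.00226.

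Pnpla2, Lpin1, Cidec, Acot2 and Lpin2 were covered more in Adar-deficient liver and were not taken from a list. Pnpla2 and Lpin1 were among the genes of smallest p, and the other 3 were chosen after their values were seen. Pnpla2, the triglyceride lipase of lipid droplets, had 1376, 1734 and 1761 bases in Adar-deficient and none in Mavs-/- libraries (limma adjusted p = 0.000879). Lpin1, a phosphatidate phosphatase and coactivator, had 2552, 1780 and 2189 bases against none (limma adjusted p = 0.000879). Cidec, which fuses lipid droplets, had 639, 1016 and 1216 bases against none (limma adjusted p = 0.00217), and the thioesterase Acot2 had 1157, 621 and 621 against none (limma adjusted p = 0.00289). Lpin2 had 4057, 3267 and 3989 bases against 0, 0 and 393 (log2 difference 4.50 ± 0.70 SE, limma adjusted p = 0.0183). These 5 genes were also called with equal numbers. The Lpin2 call with all peaks held only without Mavs-/- replicate 3, the library with its peak, and was otherwise lost with 1 library left out (limma adjusted p up to 0.074). Fatty acid and cholesterol synthesis genes gave 0 calls among 13 tested (limma), with a median log2 difference of 0.41.

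Enzymes of nitrogen disposal and amino acid breakdown gave 6 genes higher and 1 lower of 33 tested, with a median log2 difference of 0.40. With equal numbers only 2 were higher and 1 lower of 29. Over all tested genes 8.37% were higher and 1.24% lower, and 4.9% and 3.47% with equal numbers. Gpt2, the mitochondrial alanine aminotransferase that turns alanine into pyruvate, had 2313, 1247 and 2674 bases in Adar-deficient and none in Mavs-/- libraries (limma adjusted p = 0.00186, and 0.00268 with equal numbers). Gnmt, the glycine methyltransferase that disposes of excess methyl groups, had 982, 1191 and 1145 bases against 671, 634 and 778 (log2 difference 0.60 ± 0.12 SE, limma adjusted p = 0.0442, and 0.0417 with equal numbers). The Gpt2 call held with any 1 library left out. That of Gnmt was lost without Adar-deficient replicate 2 or 3 or without Mavs-/- replicate 1 or 2 (limma adjusted p up to 0.133).

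The urea cycle enzyme Ass1 had 1262, 1592 and 911 bases in Adar-deficient and 237, 424 and 323 in Mavs-/- liver (log2 difference 1.65 ± 0.27 SE). Its activator enzyme Nags, which makes the cofactor of the first urea cycle step, had 1039, 565 and 607 against none. The Ass1 call was lost without Adar-deficient replicate 1 or 2 or Mavs-/- replicate 1 (limma adjusted p up to 0.0633). Ass1, Nags, Agxt, of glyoxylate metabolism, and Ahcy, of the methionine cycle, were called with all peaks (limma adjusted p = 0.0215, 0.00266, 0.0257 and 0.0157), but not with equal numbers (0.273, 0.273, 0.457 and 0.282). Agxt was also lost without Adar-deficient replicate 1 or 3 or Mavs-/- replicate 1 or 2, and Ahcy without Adar-deficient replicate 2 or 3 or Mavs-/- replicate 1. Afmid, of tryptophan breakdown, was called lower (none in Adar-deficient and 788, 1059 and 352 bases in Mavs-/- libraries, limma adjusted p = 0.0104), but 100% of its covered bases were shared with an overlapping gene and cannot be assigned to it. Outside the list, Ftcd of histidine breakdown (2795, 2716 and 2859 against 1666, 1777 and 2045 bases, limma adjusted p = 0.0134) and Oat of ornithine breakdown (414, 417 and 1290 against none, limma adjusted p = 0.0203) were higher, both chosen after their values were seen. The Ftcd call was lost without Adar-deficient replicate 3 or Mavs-/- replicate 2, and the Oat call without Mavs-/- replicate 1 or 2.

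The cytochrome P450 and bile acid genes were divided: of 31 tested, 4 were higher and 3 lower. With equal numbers 1 of 26 was higher and 4 lower. Over all tested genes 8.37% were higher and 1.24% lower, and 4.9% and 3.47% with equal numbers. Cyp1a2 (9:57676937-57683703, minus strand), an oxidase of drugs and caffeine, had 1290, 1252 and 725 bases in Mavs-/- and none in Adar-deficient libraries (limma adjusted p = 0.00205, and 0.00113 with equal numbers). Cyp2j5, which oxidises arachidonic acid, had 753, 463 and 504 bases in Mavs-/- and none in Adar-deficient libraries (limma adjusted p = 0.00234). Cyp3a44 likewise had 515, 1227 and 487 bases in Mavs-/- libraries only (limma adjusted p = 0.00871), and its neighbour Cyp3a16 was lower with equal numbers only (limma adjusted p = 0.00236). Near-identical Cyp3a genes may share reads. The 3 called lower held with any 1 library left out.

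On the other side, Cyp27a1, of bile acid synthesis, had 1115, 580 and 1731 bases in Adar-deficient and none in Mavs-/- libraries, Cyp39a1 had 1045, 459 and 1284 against none, Cyp3a25 had 341, 1196 and 1371 against none, and Cyp2c29 had 322, 786 and 322 against none. Their limma adjusted p values were 0.00599, 0.00705, 0.0203 and 0.014, and none of the 4 was called with equal numbers. The Cyp3a25 call was also lost without Adar-deficient replicate 2 or 3 or Mavs-/- replicate 1 or 2, and that of Cyp2c29 without Mavs-/- replicate 1 or 2. The bile acid-responsive repressor Nr0b2 had 1005, 971 and 1068 bases against 0, 0 and 507 and was called with equal numbers only (limma adjusted p = 0.000362, against 0.148 with all peaks).

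**Figure D4:**
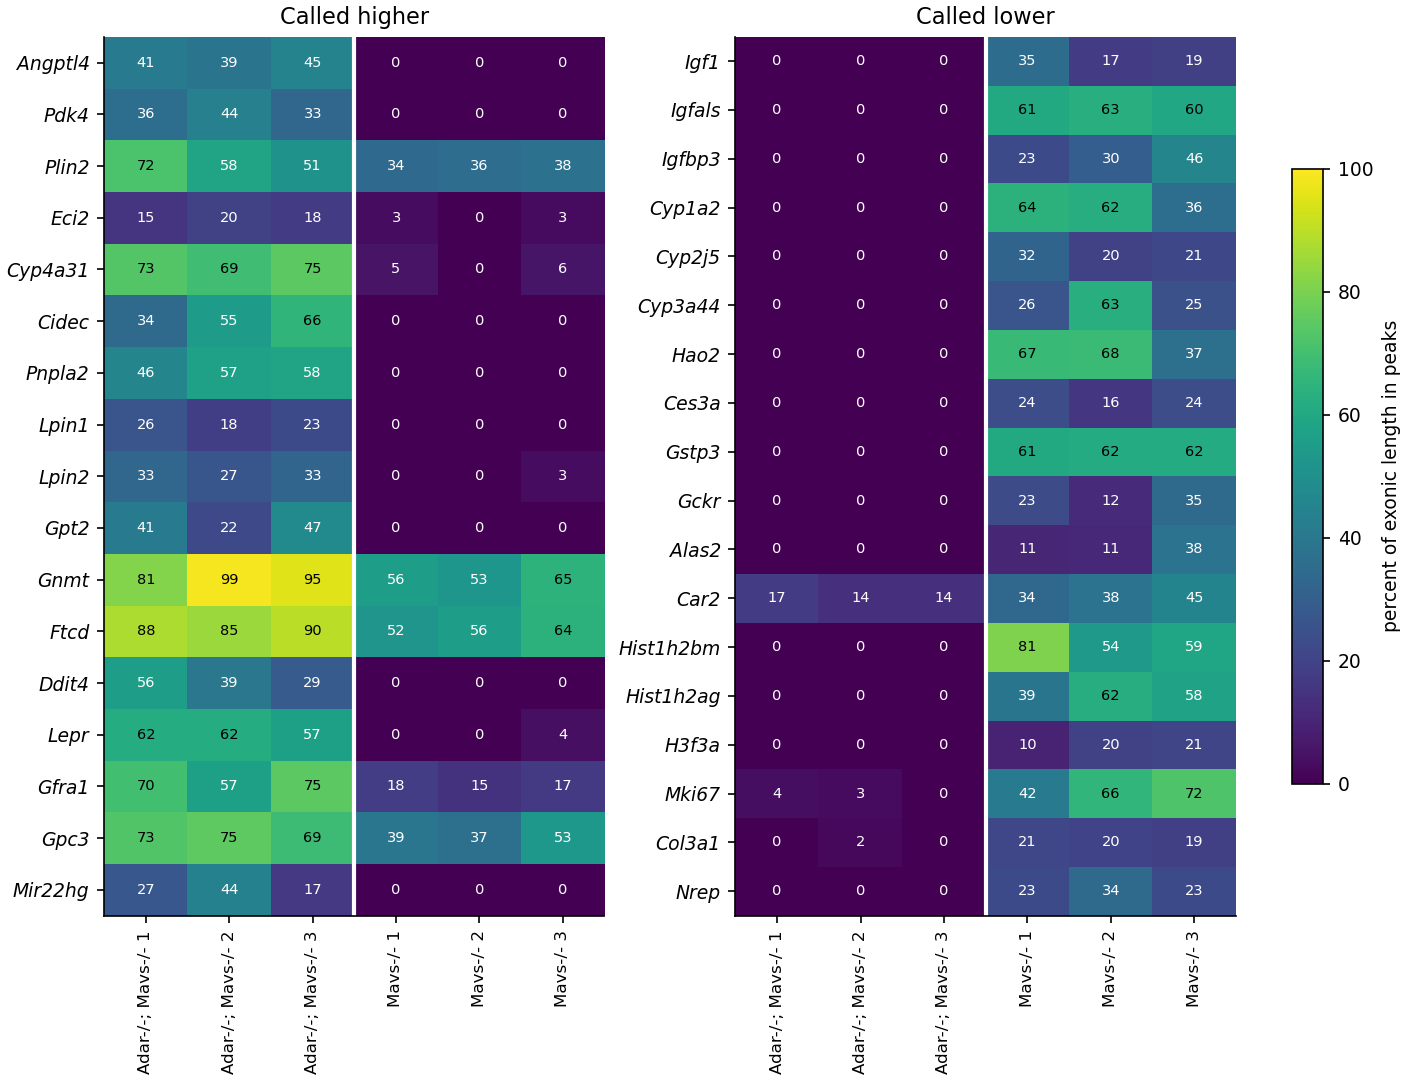
Share of exonic length in Input peaks (percent, printed in each cell and as colour) in the 6 libraries, for selected genes called higher (left) and lower (right) in Adar-/-; Mavs-/- liver with all peaks and with equal numbers. Most genes on the right, Igf1 to Nrep, have 0 in all 3 Adar-/-; Mavs-/- libraries. On the left, Gnmt, Ftcd, Gfra1, Gpc3 and Plin2 are covered in all 6 libraries.

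Gfra1 (19:58235604-58455909, minus strand), the co-receptor for glial cell line-derived neurotrophic factor, had 3821, 3115 and 4089 bases in Adar-deficient and 997, 799 and 923 in Mavs-/- liver (log2 difference 1.90 ± 0.13 SE, limma adjusted p = 0.00185, and 0.000789 with equal numbers). Lepr (4:101717404-101815352, plus strand), the leptin receptor, had 4361, 4363 and 4006 bases against 0, 0 and 291 (log2 difference 4.78 ± 0.60 SE, limma adjusted p = 0.00848). Both calls held with any 1 library left out, and both genes were chosen after their values were seen. Gpc3, a heparan sulphate proteoglycan of fetal liver, had 1959, 2019 and 1848 bases against 1060, 994 and 1430 (log2 difference 0.71 ± 0.15 SE, limma adjusted p = 0.0486), and that call held only without Mavs-/- replicate 3. Of 13 tested fetal and imprinted genes, Gpc3 was the only one higher, and Rian, a noncoding RNA of the imprinted Dlk1 region, the only one lower (none against 302, 714 and 483 bases, limma adjusted p = 0.00733, and 0.275 with equal numbers). H19, the imprinted RNA of fetal liver, was covered over 2414, 2409 and 2406 bases against 2414, 2395 and 2400.

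Of the other genes of smallest p among those higher, Garem1, an adaptor of growth factor receptor signalling, had 1628, 1474 and 1613 bases against none, and Tmem106b, a lysosomal membrane protein, had 1588, 1757 and 1653 against none (limma adjusted p = 0.000856 for both). App, the amyloid precursor protein, had 2536, 1903 and 2662 bases against 221, 222 and 222 (log2 difference 2.93 ± 0.15 SE, limma adjusted p = 0.00176, and 0.057 with equal numbers). Ncstn, a subunit of the γ-secretase that cleaves App, had 618, 587 and 574 bases against none (limma adjusted p = 0.00176). Lrp10, Tmem259, Trim8 and Cdip1 likewise had peaks in all 3 Adar-deficient libraries and none in Mavs-/- libraries, with limma adjusted p of 0.00103, 0.000879, 0.00133 and 0.00103. Further genes chosen after their values were seen, the nuclear receptor Rora (396, 628 and 1233 bases), the glucocorticoid-induced factor Zbtb16 (1357, 922 and 2169) and the reticulophagy receptor Retreg1 (1284, 1100 and 1770), also had no Mavs-/- peak (limma adjusted p = 0.0111, 0.0025 and 0.00176). Txnip, an inhibitor of glucose uptake, had 2826, 2806 and 2519 bases against 1345, 1393 and 1859 (log2 difference 0.80 ± 0.14 SE, limma adjusted p = 0.0276), a call that held only without Mavs-/- replicate 3.

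Genes with lower coverage also included liver enzymes. Hao2, a peroxisomal oxidase (3:98874521-98893239, minus strand), had 1377, 1397 and 757 bases in Mavs-/- and none in Adar-deficient libraries (limma adjusted p = 0.00208). Gstp3, a glutathione transferase, had 550, 560 and 559 in Mavs-/- libraries only (limma adjusted p = 0.00176), and the carboxylesterase Ces3a had 619, 419 and 623 in Mavs-/- libraries only (limma adjusted p = 0.00208). The relative of Gstp3, Gstp1, went the other way, with 471, 392 and 500 bases in Adar-deficient against 0, 0 and 104 (limma adjusted p = 0.0232), although such close copies may share reads. The Gstp1 call was lost without Adar-deficient replicate 2 or 3 or Mavs-/- replicate 1 or 2 (limma adjusted p up to 0.0768). Gckr, the regulator that holds glucokinase in the nucleus, had 1005, 537 and 1504 bases in Mavs-/- and none in Adar-deficient libraries (limma adjusted p = 0.00559), and the albumin relative Afm had 0, 133 and 0 bases in Adar-deficient against 1152, 1449 and 1317 in Mavs-/- libraries (log2 difference -3.40 ± 0.39 SE, limma adjusted p = 0.0065). Nrep, Pea15a and Tmem86b were lower too, with no peak in Adar-deficient libraries (limma adjusted p = 0.00177, 0.00176 and 0.00177). Gstp1, Gckr and Afm were chosen after their values were seen.

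The proliferation marker Mki67 (7:135689784-135716361, minus strand) had 373, 297 and 0 bases in Adar-deficient and 4205, 6608 and 7294 in Mavs-/- liver. Its log2 difference was -4.49 ± 0.68 SE (limma adjusted p = 0.0162, and 0.0142 with equal numbers). The genotypes did not overlap, and the call was lost without Mavs-/- replicate 1 or 2 (limma adjusted p up to 0.0653). Of 35 cell cycle genes on the list 5 were tested and only Mki67 was called, and the number listed was 4, 4 and 2 against 3, 6 and 13, highest in Mavs-/- replicate 3. In bulk RNA, fewer cells of a type and less RNA per cell cannot be told apart. Histone genes gave 0 higher and 3 lower of 39 tested, 0 and 8 of 35 with equal numbers, and 0 and 20 by centred area. Over all tested genes 1.24% were lower, 3.47% with equal numbers and 4.16% by centred area. Without Adar-deficient replicate 1, 10 of the 39 histone genes were lower, where 1.91% of all tested genes were. Without any other 1 library 3 or 4 were lower. The median log2 difference of histones was -0.54 with all peaks and -0.82 with equal numbers. Without Adar-deficient replicate 3 it was -0.115 with all peaks. Summed over the list, 14594, 12090 and 8542 bases were covered in Adar-deficient and 13188, 15237 and 17106 in Mavs-/- libraries, so the groups overlapped. Hist1h2bm had 422, 283 and 310 bases in Mavs-/- and none in Adar-deficient libraries (limma adjusted p = 0.00265), Hist1h2ag had 188, 303 and 280 in Mavs-/- libraries only (limma adjusted p = 0.00439), and H3f3a had 351, 685 and 729 in Mavs-/- libraries only (limma adjusted p = 0.005). Replication-dependent histone genes are near-identical copies that may share reads. The histone calls of these 3 genes held with any 1 library left out.

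Of 17 tested erythroid markers, 2 were called lower and none higher (limma), with a median log2 difference of -1.18, and 8 were lower by centred area. Over all tested genes 1.24% were lower, and 4.16% by centred area. Without 1 library the number of these markers called lower ran from 1 to 5, highest without Mavs-/- replicate 2. Alas2, the erythroid enzyme of haem synthesis, had 261, 269 and 919 bases in Mavs-/- and none in Adar-deficient libraries (limma adjusted p = 0.0429). Car2, a carbonic anhydrase of red cells and other cells, had 419, 331 and 330 bases in Adar-deficient against 816, 920 and 1090 (log2 difference -1.18 ± 0.16 SE, limma adjusted p = 0.0103, and 0.000471 with equal numbers). The Alas2 call held only without Mavs-/- replicate 3. The globin genes were close to full length in every library and were not called by coverage, as for Hbb-bs (661, 643 and 565 bases against 670, 660 and 664, limma adjusted p = 0.64). Their centred area did differ, by -1.29 on the log2 scale for Hbb-bs (limma adjusted p = 0.0103). Summed over the list, erythroid genes had 6983 to 10150 covered bases in Adar-deficient and 6165 to 27074 in Mavs-/- libraries, so the groups overlapped. Without Mavs-/- replicates 1 and 3 the median of the list was -0.07.

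Col3a1 (1:45311538-45349706, plus strand), a fibrillar collagen of stellate and other mesenchymal cells, had 0, 226 and 0 bases in Adar-deficient and 2081, 1959 and 1871 in Mavs-/- liver (log2 difference -3.80 ± 0.52 SE, limma adjusted p = 0.0117, and 0.000789 with equal numbers). This call was lost without Mavs-/- replicate 1 or 2 (limma adjusted p up to 0.0553). It was the only one of 17 tested endothelial and stellate cell markers called, and Reln was lower with equal numbers only (limma adjusted p = 0.0093). Tyrobp, a signalling adaptor of myeloid cells, was the only one of 15 Kupffer cell and macrophage markers called lower (none against 147, 147 and 147 bases, limma adjusted p = 0.00252, and 0.273 with equal numbers). Its coverage with all peaks did not vary within either genotype, so that p rests on the spread of other genes. Markers of neutrophils, B cells and T cells gave 0 calls of 8 tested with all peaks (limma). Krt18, listed as a cholangiocyte marker and also made by hepatocytes, was higher (1337, 1320 and 1329 bases against 617, 554 and 830, limma adjusted p = 0.0236, and 0.19 with equal numbers), a call lost without any 1 Adar-deficient library or Mavs-/- replicate 1.

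The interferon-stimulated genes depended on 1 library. Of 23 tested, 1 was called higher and none lower with all peaks, with a median log2 difference of 1.15. With equal numbers 0 of 18 were called, with a median of 0.54, and none was called by centred area (limma). The class I antigen-presenting gene H2-K1 was the one called, with 1568, 1683 and 1732 bases in Adar-deficient and 1186, 1268 and 1272 in Mavs-/- liver (log2 difference 0.39 ± 0.07 SE, limma adjusted p = 0.0249, and 0.103 with equal numbers). Irf1, Irf9, Isg15, Irgm1, Gbp2, Gbp7, Tap1 and Psmb8 had no peak in Adar-deficient replicate 1 and peaks in replicates 2 and 3. For the GTPase Gbp7 these were 0, 1961 and 2294 bases, and for the GTPase Irgm1 0, 1778 and 1703 bases, both with none in Mavs-/- libraries. Part of the Gbp7 bases (29.9%) were shared with an overlapping gene. For the transcription factor Irf1 they were 0, 1142 and 888 bases against none, and for the ubiquitin-like Isg15 0, 428 and 371 against none. Without replicate 1, 10 of 23 were called higher, among them the genes just named and H2-K1. Over all tested genes 15.0% were then higher and 1.91% lower. Apart from H2-K1, the named genes had no peak in replicate 1. Leaving it out was thus bound to raise their differences and cannot serve as a check. Without replicate 2 or without replicate 3, or without Mavs-/- replicate 1 or 2, 0 of 23 were called (limma), and without Mavs-/- replicate 3, 2 were.

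Sensors of double-stranded RNA and editing enzymes were listed for 0, 3 and 6 genes in Adar-deficient and for none in any Mavs-/- library, of 18 on the list. Only 3 had peaks in 2 libraries and could be tested: Adar itself, the Z-nucleic acid sensor Zbp1 with 0, 237 and 225 bases, and the double-stranded RNA-binding protein Stau1 with 0, 210 and 890 bases. None passed with all libraries (limma adjusted p = 0.236, 0.236 and 0.263), and none could be tested with equal numbers. These 3 entered the test only through Adar-deficient replicates 2 and 3. A fit without replicate 1 was thus bound to favour them and could not check them. The interferon genes above and these sensors followed the same library split. More widely, 291 genes had peaks in Adar-deficient replicates 2 and 3 only, against 93 in replicates 1 and 2 only and 103 in replicates 1 and 3 only. These counts are with all peaks, and replicate 1 had a shorter list (6991 peaks) than replicates 2 and 3 (8868 and 8948). List length was not separated from other differences in them. The count of interferon calls is given with and without replicate 1, and what sets this library apart was not tested. The replicate had no Adar peak, and the peaks could not check its genotype label or that of any other library.

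Of 17 tested genes of the integrated stress response and ATF4, the pathway downstream of PKR, 1 was called higher, with a median log2 difference of 1.37, and 1 of 10 was higher and 1 lower with equal numbers. On this list 16, 13 and 16 genes had a peak in Adar-deficient and 2, 5 and 12 in Mavs-/- libraries. Summed over the list, 9674 to 13717 bases were covered in Adar-deficient and 2187 to 8330 in Mavs-/- libraries, so the groups did not overlap, as for covered bases over all genes. With 1 library left out, in the order given above, 2, 3 and 2 and then 1, 1 and 4 were called higher. Over all 3871 tested genes, 579, 362 and 356 and then 287, 287 and 578 were higher in those fits. With all libraries the called gene was Ddit4, an inhibitor of mTORC1 signalling induced by stress, fasting and glucocorticoids, with 978, 693 and 507 bases in Adar-deficient and none in Mavs-/- libraries (limma adjusted p = 0.00264, and 0.000774 with equal numbers). The stress pseudokinase Trib3 had 907, 374 and 0 bases against none (limma adjusted p = 0.236), and Atf5 had 1713, 1707 and 1701 against 1474, 1315 and 1674 (limma adjusted p = 0.243). Of p53 targets only 3 were tested, and the cell cycle inhibitor Cdkn1a had 892, 1259 and 674 bases against none (limma adjusted p = 0.0021, and 0.273 with equal numbers). Of 13 endoplasmic reticulum chaperone genes, Pdia6 was called (722, 975 and 890 bases against 337, 431 and 229, limma adjusted p = 0.0411, and 0.997 with equal numbers), a call lost without Adar-deficient replicate 2 or 3 or Mavs-/- replicate 1. Of 21 acute-phase genes, the complement gene C4b was called (5483, 5472 and 5302 against 4665, 4468 and 4773 bases, limma adjusted p = 0.0156), with a log2 difference of 0.22 that became -0.035 when libraries were centred. It was also lost without Mavs-/- replicate 1 (limma adjusted p = 0.0579).

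Genes of secreted plasma proteins gave 0 calls of 49 tested by covered bases (limma) with a median log2 difference of 0.01, and 2 higher and 4 lower by centred area with a median of -0.17. Between 47 and 49 of them were listed in every library. An example is albumin, Alb, with 2276, 2031 and 2026 bases against 2025, 2203 and 2339. Mitochondrially encoded genes gave 0 calls of 28 by covered bases (limma) with a median of 0, but were close to equally covered in all libraries, at 14143 to 14438 bases over the list in Adar-deficient and 14215 to 14382 in Mavs-/- liver. By centred area 7 of 28 were lower and none higher, with a median log2 difference of -0.49. Of 19 tested genes of gluconeogenesis, glycolysis and glycogen, the glycolytic isomerase Gpi1 was called higher with all peaks (limma adjusted p = 0.00871, and 0.106 with equal numbers). With equal numbers 1 of 18 was higher and 2 were lower, and by centred area 3 were higher and 4 lower. The gluconeogenic enzymes Pck1 (3352, 3339 and 3342 against 3035, 3344 and 3323 bases) and G6pc (2130, 2128 and 1920 against 2080, 2022 and 2136 bases) overlapped between genotypes. Of 48 cytosolic ribosomal protein genes, Rpl27 and Rps28 were called higher with all peaks (limma adjusted p = 0.01 and 0.0442) and none of 33 with equal numbers (limma). The Rps28 call was lost without Adar-deficient replicate 2 or any 1 Mavs-/- library. No major urinary protein gene had a peak in any library. Of the study's 3 cloned inverted-repeat genes only Zkscan3 had an exonic peak, of 434 bases in Adar-deficient replicate 3.

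**Figure D5:**
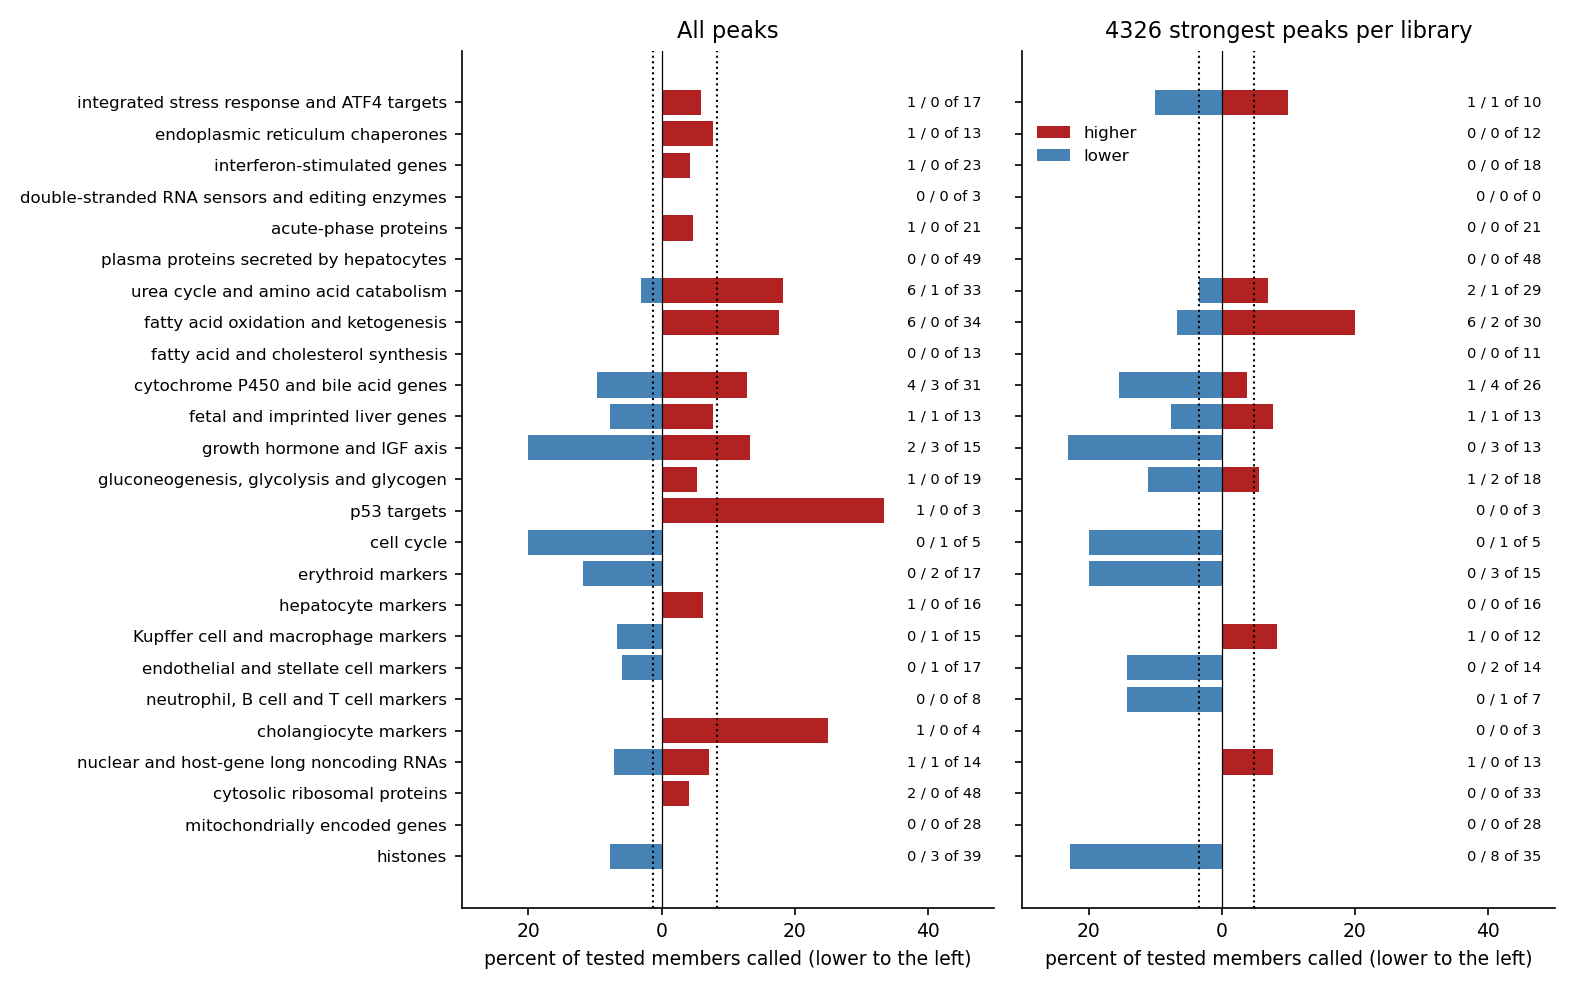
Share of tested members of each gene list called higher (red, to the right) and lower (blue, to the left), in percent, with all peaks (left panel) and with the 4326 strongest peaks per library (right panel). Dotted lines mark the shares over all tested genes (8.37% higher and 1.24% lower with all peaks, 4.9% and 3.47% with equal numbers), and figures at the right give higher / lower of tested. Fatty acid oxidation has 6 higher members in each panel, not all of them the same genes (Cpt1a on the left only, Cyp4a10 on the right only), the growth hormone and IGF axis has 3 lower in each, and histones go from 3 to 8 lower.

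A gene can also be compared by presence alone. Of 5276 genes, 267 (5.06%) had a peak in all 3 Adar-deficient and in no Mavs-/- library, and 44 (0.834%) the reverse. With equal numbers these were 106 (2.95% of 3592) and 89 (2.48%). Both ways, the counts were 61 and 29. Those with the largest share of exonic length covered in the first group were Isyna1, an inositol synthase, with 2079, 1810 and 1221 bases, Imp3 of ribosome assembly with 735, 548 and 734, the immediate early gene Ier2 with 891, 746 and 1057, the trefoil peptide Tff3 with 413, 311 and 331, and the calcium-binding S100g with 363, 299 and 335. The others were the small RNAs Mir5125, Scarna17 and Snord49b, which were covered over 79, 79 and 72 bases in each Adar-deficient library. In the reverse group they were Igfals, Gstp3, Cyp1a2, Hao2, the 2 histone genes Hist1h2bm and Hist1h2ag, and the small nucleolar RNAs Snora17 (109, 127 and 112 bases) and Snord96a (62, 62 and 52, all shared with an overlapping gene).

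Genes whose coverage did not overlap between genotypes were more numerous than calls: 870 (22.5%) were higher in all 3 Adar-deficient libraries and 159 (4.11%) lower with all peaks, and 384 (9.92%) and 241 (6.23%) with equal numbers. Both ways, 364 (9.4%) were higher and 131 (3.38%) lower. Among noncoding genes, Mir22hg (11:75461539-75466676, plus strand), the host of the microRNA miR-22, had 526, 844 and 318 bases in Adar-deficient and none in Mavs-/- libraries (limma adjusted p = 0.00929, and 0.00863 with equal numbers). It was the only one of 14 tested nuclear and host-gene noncoding RNAs called higher. The nuclear RNA Malat1 had 6577, 6556 and 6456 bases against 6579, 6398 and 6233 (limma adjusted p = 0.526), and Neat1 had 17111, 6928 and 5770 against 2338, 0 and 1719 (limma adjusted p = 0.236). The mature products encoded in Mir22hg are given, from RefSeq on GRCm38.p6, with the seed (bases 2 to 8) in capitals, although these libraries do not measure mature microRNAs.
miR-22-5p: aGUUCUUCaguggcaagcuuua
miR-22-3p: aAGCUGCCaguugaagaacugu

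Promoters of the called genes were searched on both strands for short elements, with 250 bases before and 50 after each RefSeq start. They were available for 59 of the 84 genes called higher and 22 of the 34 called lower, some with more than 1 start. The C/EBP-ATF element TGATGNAA was in 3.97% of all 32851 promoters. It was in 1 of 75 promoters of genes called higher both ways and in 1 of 27 of genes called lower. Of the promoters of listed integrated stress response genes, 36.4% had it. The interferon response core (GAAA, 2 bases of any kind and GAAA again) was in 3.44% of all promoters. It was in 3 of 75 of those called higher and in 0 of 27 of those called lower. Of the promoters of listed interferon-stimulated genes, 40.4% had it. Further letters were added after the data were seen. The STAT element TTCNNNGAA was in 8.30% of all promoters, in 3 of 27 of those called lower and 1 of 75 called higher. The 3 belonged to only 2 genes, Igfals and Prok1. The forkhead element TGTTTAC was in 3.65% of all, in 4 of 75 called higher and in 3 of 27 called lower. The PPAR repeat (AGGTCA again after 1 base of any kind) was in 0.0396% of all and in none of either set. These counts are a description, and none was tested. Windows of Igfals, Lpin2 and Txnip are shown as examples chosen after the matches were seen. The other matches were in promoters of Prok1, Retreg1, Cyp2j5, Cyp3a44, S100g, Gfra1, Psmd9, Slc25a22 and a predicted gene. The matched letters are in capitals (GRCm38.p6, plus strand).
Igfals, STAT element, chr17:24878163-24878192: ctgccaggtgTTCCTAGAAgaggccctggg
Igfals, STAT element, chr17:24877598-24877627: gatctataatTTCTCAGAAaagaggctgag
Igfals, forkhead element, chr17:24877981-24878010: gggcagcaTGTTTACctggggtctttgtac
Lpin2, forkhead element on the minus strand, chr17:71204505-71204534: tacctatcagtGTAAACAcatggtgcggcc
Lpin2, C/EBP-ATF element, chr17:71204449-71204478: cctgttctgtgTGATGGAAgctgtagttga
Txnip, forkhead element on the minus strand, chr3:96557825-96557854: ttggaggcctgGTAAACAagggccaagtag

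The largest summed area per exonic kilobase was found at Mir675, which lies inside H19, and at 9 mitochondrial transfer RNAs. Mir675 was covered over 84 bases in each of the 6 libraries, and no gene of this group was called (limma adjusted p from 0.240 to 1).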

How the data were processed

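Total RNA of liver was depleted of ribosomal RNA and made into directional libraries, which were sequenced without RNase digestion. Per the labels and methods, the authors used Trim Galore 0.6.6 for adapters, NextGenMap for alignment to GRCm38 and Genrich 0.6.1 for peaks, run apart for every library and strand. Their limits were an adjusted p of 0.01, an area of at least 500 and gaps within a peak of no more than 20 bp. The score in each deposited list is the area under a peak's significance curve, which grows with depth. In the gene tests on summed area, libraries were centred first. Areas were not centred for the smallest area kept with equal numbers, for the stricter minimum area or for the area per exonic kilobase. Counts with the stricter minimum area may therefore still carry a difference in depth. The significance values deposited by the authors are −log10 of the p and of the adjusted p of Genrich. The lists hold no counts and the read totals of the libraries were not used here, so no counting interval is given.

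Libraries were grouped by the genotype in their labels, with 3 per genotype. A peak was assigned to a GENCODE M21 gene when it overlapped an exon of its strand by at least 1 base. Overlapping exons of a gene were merged, and overlapping peaks were merged only where strands were ignored. Covered exonic bases were compared as log2(bases + 100) with limma 3.58.1 (R 4.3.3, moderated with a trend) for genes with a peak in at least 2 libraries, with Benjamini-Hochberg adjustment over all genes tested. The code was tested on simulated data. Values per library were compared by exact permutation. The members and gene lists were chosen with earlier results of these data known. Genes are named where they were called and kept their direction with equal numbers of peaks (up to 8 per list), among the 12 of smallest p in each direction whose genotypes do not overlap, among the 8 listed in one genotype only with the largest covered share, among the 10 of largest area per kilobase, or on the list of sensors and editing enzymes. Predicted genes and pseudogenes were counted but not named. Other genes are given as members of a list, or as chosen after their values were seen: Xist, Mdh2, Pla1a, Cyp4a31, Cyp4a10 and those so described.

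Alternatives were equal numbers of peaks, a minimum area of 1000, strands ignored, bases of 1 gene only, pseudocounts of 10 and 500 bases, other filters, percent of exonic length, centred area, centred libraries, the replicate number as a block and each library left out. The fit without Mavs-/- replicates 1 and 3, and 3 of the promoter elements, were added after seeing the data. The digested libraries were not used here, and some genes that the naming rule covers are not reported here.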

Additional observations from a re-analysis of the deposited data

How the results depend on the processing

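The difference in genes with a peak per library was above 0 under every alternative run (from 848 to 1407 genes with 1 library left out), as was that in covered exonic bases. Read totals were not used here, and the number of calls changed with the peaks that were admitted. The count of genes called higher (324) was 130 with equal numbers of peaks, 197 with a minimum area of 1000, 287 to 579 with 1 library left out and 567 without Mavs-/- replicates 1 and 3, chosen after seeing the data. The count called lower (48) was 92 with equal numbers, 161 by centred area, 51 to 86 with 1 library left out and 88 without Mavs-/- replicates 1 and 3. The largest counts higher came without Adar-/-; Mavs-/- replicate 1 (579) and without Mavs-/- replicate 3 (578). Genes not overlapping were 384 higher and 241 lower with equal numbers, and 389 and 83 with a minimum area of 1000, against 870 and 159. Genes in all 3 libraries of one genotype only were 106 and 89 with equal numbers, against 267 and 44, and 162 and 31 with a minimum area of 1000. With 1 library left out they were 290 to 558 and 50 to 89. Those counts could not fall below 267 and 44, since 1 library fewer had to meet the rule. C4b reversed to -0.035 when libraries were centred. Mdh2 and Pla1a reversed to -0.28 and -0.35 with equal numbers, and likewise with equal numbers and the replicate block. The causes were not tested.

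The replicate numbers do not pair the samples: correlations of deviations between same-numbered libraries were 0.02, -0.01 and -0.02 with all peaks. With the replicate number as a block, 0 genes were called higher and 0 lower with all peaks (limma, with 614 and 83 at an unadjusted p under 0.05), and 74 were called higher and 57 lower with equal numbers and the block. Of the 84 genes called higher and 34 called lower both ways, 46 and 19 kept their call under that fit, and all kept their direction.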
